A study of Mus musculus with 40 samples.

Results

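Satellites are short repeat units that occur many times in a genome, and the repeat annotation of the mouse gives this class both to the tandem arrays around centromeres and to units scattered in genes. The copies described here are all entries of the repeat table whose class and family label is Satellite, 2297 of 835636 copies. They carry 6 names: MMSAT4 with 1372 copies, ZP3AR with 804, MurSAT1 with 81, GSAT_MM with 20, IMPB_01 with 12 and SYNREP_MM with 8. By position, 1090 copies lay within zinc finger genes, 29 lay outside such genes in the first 4000000 bases of their chromosome, next to the centromere and called pericentromeric here, and 1178 lay elsewhere. The word pericentromeric is by position alone: 21 of the 29 were ZP3AR units. Of the GSAT_MM copies 14 of 20 lay elsewhere, as did 7 of the 8 SYNREP_MM copies. A zinc finger gene is one named as such by its symbol or one whose coding sequence holds at least 3 finger patterns. The label Satellite thus covers, in this table, many pieces of genes: 938 of the 1372 MMSAT4 copies overlapped annotated coding sequence. MurSatRep1, with 7800 copies, has the class Unknown in the same table. It is no member and is used only for comparison.

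The study transplanted the mouse melanoma line YUMM1.7 from mouse to mouse, and measured poly(A) RNA of cells that had been taken from dissociated tumours and cultured for 1 to 3 passages. The 40 libraries form 11 groups, all without treatment: the unpassaged line YUMM1.7 (3 cultures), then tumours of passage F0 (4), F1 (4), F2 (5), N2.1 (5), N2.2 (3), N2.3 (3), Balb/c-1 (4), Balb/c-2 (3), Balb/c-2 rep2 (3, the Balb/c-2 tumours measured again) and CBA (3). Libraries are named by group and tumour letter. Balb/c and CBA are inbred mouse strains, used here as hosts, and the meaning of N2 was not given in the sources used here. All tumours descend from 1 line and each passage was made once, so that passage, host and the history of the line cannot be told apart. The labels name sequencing in January 2021 and April 2022 with F2 sequenced again, but assign no library to either, so that sequencing batch and group cannot be told apart. The library names set the 3 Balb/c-2 rep2 and 3 CBA libraries apart: these 6 carry a sequencing run and lane, the same lane in all but rep2 B, and the other 34 carry none. Run and group therefore cannot be told apart between these 6 and the rest. The cell label is melanoma. Of 7 melanocyte genes 2 had a repeat copy in an exon, and their summed signal was 0 to 1.15 per library, so the table hardly tests the label. The summed signal was 0 to 15.5 for 4 readable of 6 immune genes, 0 to 3.26 for 1 of 3 endothelial genes and 628 to 2759 for 4 of 7 fibroblast genes, which include Pdgfra and Pdgfrb.

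C2H2 zinc finger proteins bind DNA through a row of small domains, each folded around a zinc ion held by a pair of cysteines and a pair of histidines, and neighbouring fingers are joined by a short, strongly conserved linker. In many of their genes the fingers lie as tandem units in a single long exon, so that such a gene reads like a repeat array. Many of the proteins also carry a KRAB domain, through which they recruit the co-repressor Trim28 and enzymes that build heterochromatin, often on transposable elements. GSAT_MM is the major satellite, the array that makes up the pericentromeric heterochromatin of mouse chromosomes, whose transcripts have been followed as a sign of disturbed heterochromatin.

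The sequences of 7 MMSAT4 copies in coding exons show what was counted. They are printed in the direction of the host transcript from the GENCODE release M21 transcripts, with coordinates of mm10. Capitals mark the linker between fingers, searched as ACNGGNGANAANCCNTAN on both strands, where N is any base. Bcl6 is shown because its copy spans 1 finger from linker to linker, and Zfp354c because it holds 3 linkers in a row. Zfp771 and Gm14139 are shown as a GC-rich and a GC-poor version of the unit whose signals moved in opposite directions between F2 and N2.1. Repin1, Zfp865 and Zfp358 are shown for their fold changes beside those of other repeat copies in exons of the host gene. Copy and host were not tested against each other. Where no capitals stand, no linker of this spelling lies in the copy.
Bcl6 (chr16:23968060-23968170, minus strand): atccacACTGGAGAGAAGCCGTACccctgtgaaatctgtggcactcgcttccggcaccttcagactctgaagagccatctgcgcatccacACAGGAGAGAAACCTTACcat
Zfp354c (chr11:50815321-50815617, minus strand): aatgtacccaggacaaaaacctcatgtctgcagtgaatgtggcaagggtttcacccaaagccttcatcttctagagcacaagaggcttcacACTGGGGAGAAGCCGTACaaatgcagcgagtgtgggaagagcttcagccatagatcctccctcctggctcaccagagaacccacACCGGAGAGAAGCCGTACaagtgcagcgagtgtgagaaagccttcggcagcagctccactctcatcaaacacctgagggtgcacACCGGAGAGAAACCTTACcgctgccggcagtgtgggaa
Zfp771 (chr7:127254083-127254202, plus strand): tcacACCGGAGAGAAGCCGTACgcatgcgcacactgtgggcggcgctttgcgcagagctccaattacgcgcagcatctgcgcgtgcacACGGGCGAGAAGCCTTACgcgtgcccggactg
Gm14139 (chr2:150193004-150193134, plus strand): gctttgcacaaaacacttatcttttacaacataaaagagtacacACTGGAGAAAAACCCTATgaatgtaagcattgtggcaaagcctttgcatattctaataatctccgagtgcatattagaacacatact
Repin1 (chr6:48597025-48597178, plus strand): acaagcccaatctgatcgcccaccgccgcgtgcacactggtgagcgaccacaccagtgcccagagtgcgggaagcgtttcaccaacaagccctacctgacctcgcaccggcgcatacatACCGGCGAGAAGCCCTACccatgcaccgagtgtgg
Zfp865 (chr7:5030706-5030843, plus strand): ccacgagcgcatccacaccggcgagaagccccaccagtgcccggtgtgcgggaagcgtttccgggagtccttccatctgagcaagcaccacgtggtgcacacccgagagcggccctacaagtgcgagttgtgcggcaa
Zfp358 (chr8:3496018-3496153, plus strand): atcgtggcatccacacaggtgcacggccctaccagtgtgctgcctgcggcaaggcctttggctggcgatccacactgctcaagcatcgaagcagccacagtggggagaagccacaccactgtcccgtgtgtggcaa

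Of 807 MMSAT4 copies that lie wholly in coding sequence, 453 (56.1%) held the linker on the transcript strand and 0 held it on the opposite strand. Of 870 MurSatRep1 copies wholly in coding sequence 653 (75.1%) held it, and of 58 copies of all other repeat names wholly in coding sequence 0 did. None of the 21 tested ZP3AR copies inside an exon held it. Distances between neighbouring linkers were taken along the longest coding transcript of each of the 398 host genes, UTRs included. Of 1564 distances 986 (63.0%) were 84 bases, the length of 1 finger with its linker, 18.8% were 168 bases and 6.65% were 252 bases.

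MMSAT4 copies supplied nearly all satellite reads. The values are read counts that the authors divided by 1 factor per library, called signal here. The satellite signal summed to 25901.8 per library on average, of which MMSAT4 gave 24083.2 (93.0%), its copies in coding sequence alone 22931.4 (88.5%), and ZP3AR 1801.93 (6.96%). Copies in zinc finger genes held 91.4% of the signal, copies elsewhere 8.54% and pericentromeric copies 0.0425%. ZP3AR copies lay mainly in introns, 575 of 804 with a summed signal of 874.8, and the 17 ZP3AR copies in 3' UTRs summed to 655.4. On the chromosomes, ZP3AR was concentrated on 7 (318 copies, 39.6%) and 5 (280 copies, 34.8%), and MMSAT4 was most frequent on 7 (325 copies, 23.7%).

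The satellite share of a library's signal over all repeat copies was higher in the early groups than in N2 and the first Balb/c passages. It was 1.63% ± 0.064 (SD, n = 3) in YUMM1.7, 1.51% ± 0.101 in F0 (n = 4), 1.67% ± 0.169 in F1 (n = 4) and 1.55% ± 0.165 in F2 (n = 5). It was 1.19% ± 0.070 in N2.1 (n = 5), 1.15% ± 0.064 in N2.2 (n = 3), 1.25% ± 0.033 in N2.3 (n = 3), 1.21% ± 0.046 in Balb/c-1 (n = 4) and 1.23% ± 0.070 in Balb/c-2 (n = 3). Every YUMM1.7, F0, F1 and F2 library lay between 1.33% and 1.78%, and every library from N2.1 to Balb/c-2 lay between 1.10% and 1.31%. The same Balb/c-2 tumours in rep2 gave 1.58% ± 0.115 (n = 3, 1.45% to 1.66%) and CBA gave 1.35% ± 0.088 (n = 3). Rep2 therefore did not overlap with Balb/c-2, and all 3 of its libraries lay within the range of the early groups. In these bulk cultures, fewer cells of a type and less RNA per cell cannot be told apart.

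**Figure D1:**
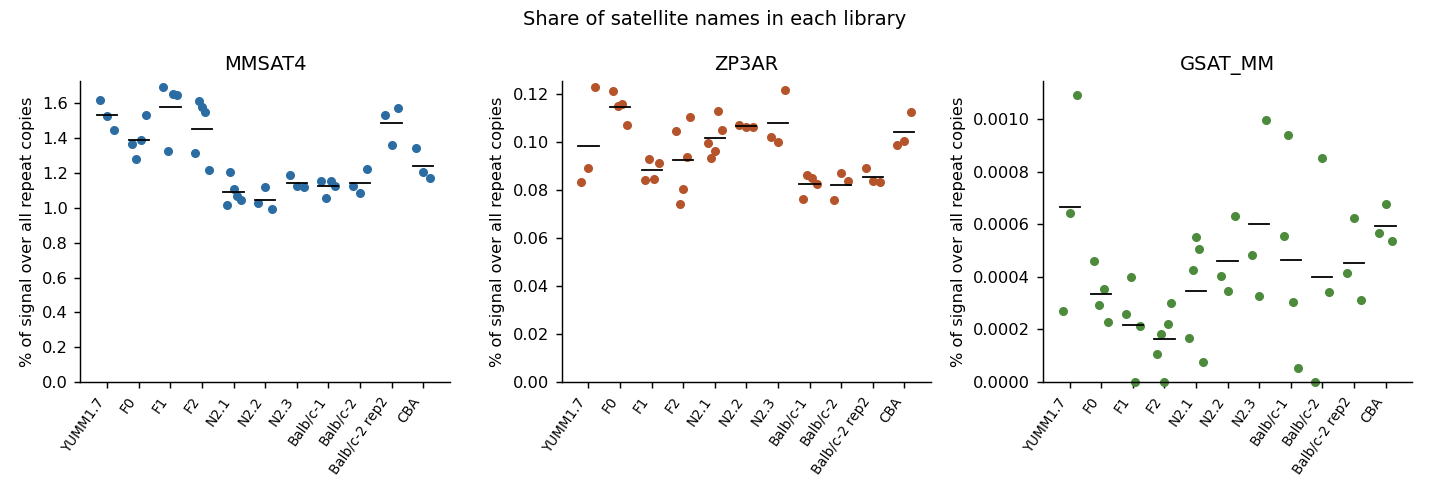
Share of the signal over all repeat copies (vertical axis, %) held by MMSAT4, ZP3AR and GSAT_MM in each library, by group (horizontal axis); each point is a library and the line is the group's mean. MMSAT4 lies between 1.02% and 1.21% in the N2.1 libraries and between 1.36% and 1.58% in the Balb/c-2 rep2 libraries, while GSAT_MM reaches at most 0.00109% in any library and is at 0 in 3 of them.

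Libraries held 1280522 to 2976730 reads over all copies and 20293 to 34426 over satellites. Whether counting used the strand is unsettled, so reads of a copy and of a gene on the opposite strand cannot be told apart. A copy was tested where its mean signal over all libraries was at least 5, which 33215 copies of the table and 468 satellites reached: 403 MMSAT4 copies (356 in coding sequence) and 65 ZP3AR copies (42 in introns). Of the tested satellites 386 lay in zinc finger genes, 82 elsewhere and 0 were pericentromeric. The test was limma on log2(signal + 1) with Benjamini-Hochberg adjustment over all 33215 copies, a call is an adjusted p under 0.05, and fold changes and their standard errors (SE) are on that log2 scale. The 8 comparisons run along the order of passages, and neighbouring comparisons share a group. Of the tested satellites 132 had a group mean below 5 in at least 1 group, so some passed the filter only through groups where they were high. The group means of a satellite spanned a median of 1.22 on the log2 scale, more than 1 in 325 copies and more than 3 in 16. With TMM factors in place of the deposited ones, the median difference over all copies became 0.03 instead of 0.13 in F0 against YUMM1.7, -0.02 instead of -0.12 in F2 against F0, 0.06 instead of 0.26 in N2.1 against F2, -0.02 instead of -0.17 in Balb/c-1 against N2.3, and 0.06 instead of 0.20 in CBA against Balb/c-2 rep2. Changes of satellites are read against these medians.

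The copies with the most signal lay in well-known regulators. The MMSAT4 copy of Bcl6b, a repressor related to Bcl6, had the highest mean (790), followed by Zfp771 (561), Zfp740 (558), Ctcf (409), the insulator protein that shapes chromatin loops, and Zeb2 (364), a repressor active in neural crest cells. Their group means ranged narrowly for Ctcf, from 277 in N2.3 to 507 in CBA, and widely for Bcl6b, from a mean of 155 among Balb/c-1 tumours up to 1792 for F1. These values are not per length and do not rank the genes. Outside zinc finger genes the highest copies were ZP3AR units in Tbl2 (173), Trim56 (137), an E3 ubiquitin ligase of antiviral signalling, and Irgq (107).

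The first tumours did not differ detectably from the cultured line in any satellite. For F0 against YUMM1.7 limma called 0 of 468 satellites higher and 0 lower, against 0% and 0% of all copies. An unadjusted p under 0.05 was reached by 30 of the 468 satellites and by 2854 of all 33215 copies. EdgeR and DESeq2 on the recovered reads called 0 satellites as well. For F2 against F0, 1 satellite was higher and 0 were lower, where 0.0331% and 0.00602% of all copies were. It is the MMSAT4 copy in a noncoding exon of Gm13230 (chr4:145450782-145450875). Its signal in F0 A to D was 15.5, 11.3, 19.4 and 24.2, and in F2 A to E it was 60.1, 29.5, 34.8, 67.9 and 33.6, without overlap (log2 fold change 1.28, SE 0.26, adjusted p = 0.0446). The call was lost on leaving out F0 B, C or D, or F2 A or D, in turn (adjusted p up to 0.171).

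Most calls came between F2 and N2.1, where the called MMSAT4 copies in coding sequence were lower more often than higher (47 against 12 of 356 tested). Of 468 satellites 18 were higher and 47 lower, that is 3.85% and 10.0%, against 7.34% higher and 2.36% lower of all copies. The median log2 fold change was -0.06 over satellites and 0.26 over all copies. With TMM factors the split was 7 higher and 68 lower for satellites (medians -0.26 and 0.06) and 1345 higher and 1399 lower for all copies, so that the excess of higher calls over all copies rests on the deposited factors. The groups did not overlap for 37 of the 65 called satellites, 50 of the 468 tested satellites and 7.78% of all copies. All 47 lower copies were MMSAT4 units in coding exons, where the median over the tested ones was -0.13. Of 883 other tested copies that overlap coding sequence and are neither satellites nor MurSatRep1, 41 were higher and 66 lower (median -0.01). Only 58 copies of such names lay wholly in coding sequence, so most of the 883 reached beyond it. Of 1268 MurSatRep1 copies 105 were higher and 15 lower (median 0.25). Among 65 ZP3AR copies 1 was higher and 0 lower, a unit in the 3' UTR of Trim56 (F2 A to E 95.7, 68.9, 106, 103 and 43.6, N2.1 A to E 154, 211, 130, 150 and 171, log2 fold change 1.01, SE 0.22, adjusted p = 0.00189).

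The share of intron signal moved with this comparison, from 14.3 to 24.4% in F2 to 21.7 to 26.7% in N2.1. With the intron share as a covariate limma called 20 satellites (9 higher, 11 lower), and without F2 B it called 34. The shares of all copies called in these fits are not reported here. The part of RNA composition in the result was not tested further.

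Zfp358 fell in both its tested units. The copy at chr8:3496018-3496153, the last sequence printed above, read 269, 631, 442, 414 and 258 in F2 A to E and 150, 94.1, 140, 128 and 141 in N2.1 A to E. The groups did not overlap (log2 fold change -1.55, SE 0.20, adjusted p = 1.28e-06). The second tested unit of the gene (chr8:3496353-3496474) fell by 1.54 with adjusted p = 1.32e-06. All later groups stayed low for the first unit, with means from 85.0 in N2.2 to 189 in Balb/c-2 rep2, against 283 to 403 in the early groups.

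Zfp422 went from clear signal to almost none. In F2 A to E its coding copy (chr6:116626450-116626757) read 11.8, 29.5, 22.1, 7.65 and 23.6, and in N2.1 it read 0.883 in tumour D and 0 in the other 4 (log2 fold change -3.99, SE 0.65, adjusted p = 5.04e-05). It was also listed at 0 in every library of N2.2, N2.3, Balb/c-1, Balb/c-2, Balb/c-2 rep2 and CBA, while it had signal in 3 of 3 YUMM1.7, 3 of 4 F0 and 3 of 4 F1 libraries. A pair of copies in 9130019O22Rik, an uncharacterised zinc finger gene, fell in the same comparison. The unit at chr7:127385200-127385413 read 21, 26.2, 5.27, 22 and 8.18 in F2 and 5.88, 0, 0, 0 and 0 in N2.1 (log2 fold change -3.36, SE 0.54, adjusted p = 4.43e-05), and that at chr7:127384529-127384667 fell by 2.69 (adjusted p = 0.000373). The copy in Zfp467 (chr6:48438804-48438961) fell by 3.03, with adjusted p = 0.00288, from 2.73 to 32.8 in F2 to at most 1.68 in N2.1. Means over all libraries were 6.34 for Zfp422, 10.4 and 7.74 for the 9130019O22Rik copies and 6.18 for Zfp467. These copies passed the limit of 5 only through the groups YUMM1.7 to F2, so their tests are not independent of the filter.

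The opposite change was seen in fewer copies, among them the GC-poor ones in Zfp985 and Zfp979. Zfp985 had 0 reads in its copy (chr4:147584234-147584501, in the 3' UTR) in every YUMM1.7, F0, F1 and F2 library. In N2.1 A to E it read 29.4, 38.9, 0, 40.6 and 1.5, so that N2.1 C and N2.1 E stayed near 0 while the other 3 were high (log2 fold change 3.39, SE 0.61, adjusted p = 0.000206). The N2.1 mean was at least 7.47-fold higher than 3 reads per F2 library, the limit that a count of 0 allows. All libraries of the later groups had signal, with group means from 24.2 in CBA to 78.1 in Balb/c-2. Zfp979 (chr4:147612714-147612869, also in a 3' UTR) showed the same tumours high: N2.1 A to E read 5.88, 8.18, 0, 18.6 and 0, and in F2 only tumour D had signal, 1.91 (log2 fold change 1.75, SE 0.56, adjusted p = 0.0394). That call was lost without F2 A, B, C or E or N2.1 A, B or D in turn (adjusted p up to 0.193) and with TMM factors (adjusted p = 0.0526). The Zfp985 and Zfp979 copies passed the limit of 5 only through N2.1 and later groups, so their tests are not independent of the filter.

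Gm14139, whose GC-poor unit is printed above, rose from 0.911, 0, 1.05, 2.87 and 1.82 in F2 to 8.40, 22.5, 15.6, 24.7 and 12.8 in N2.1, without overlap (log2 fold change 2.98, SE 0.50, adjusted p = 7.81e-05). Zfp809, a KRAB zinc finger protein known for silencing murine retroviruses, rose in its copy at chr9:22239143-22239257 by 1.72 (SE 0.44, adjusted p = 0.00961), from a mean of 3.45 in F2 to 12.7 in N2.1, with overlap. The copy in Zfp871 (chr17:32774677-32774753, 53.2% GC) rose by 1.63 (adjusted p = 0.0140), a call that was lost without F2 B (adjusted p = 0.0511). Group means from YUMM1.7 to F2 were at most 4.44 for Gm14139, 4.38 for Zfp871 and 6.13 for this Zfp809 copy. All of these copies passed the limit of 5 only through later groups, so their tests are not independent of the filter. Gm13230 rose again, to 156, 142, 63.4, 143 and 111 in N2.1 (log2 fold change 1.44, SE 0.24, adjusted p = 7.02e-05), and its later group means were 94.9 in N2.2, 139 in N2.3, 166 for Balb/c-1 tumours, 253 for Balb/c-2 tumours, 126 when the Balb/c-2 tumours were measured again in rep2, and 41.4 in CBA. Zfp985, Zfp979 and Gm13230 lie in a cluster of closely related zinc finger genes on chromosome 4, where reads may be exchanged between near-identical genes, so their values are uncertain. Of the other tested units of the cluster, the one in Znf41-ps rose by 1.12 (adjusted p = 0.00233) and the one in Zfp991 had a log2 fold change of 1.05 (adjusted p = 0.175).

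**Figure D2:**
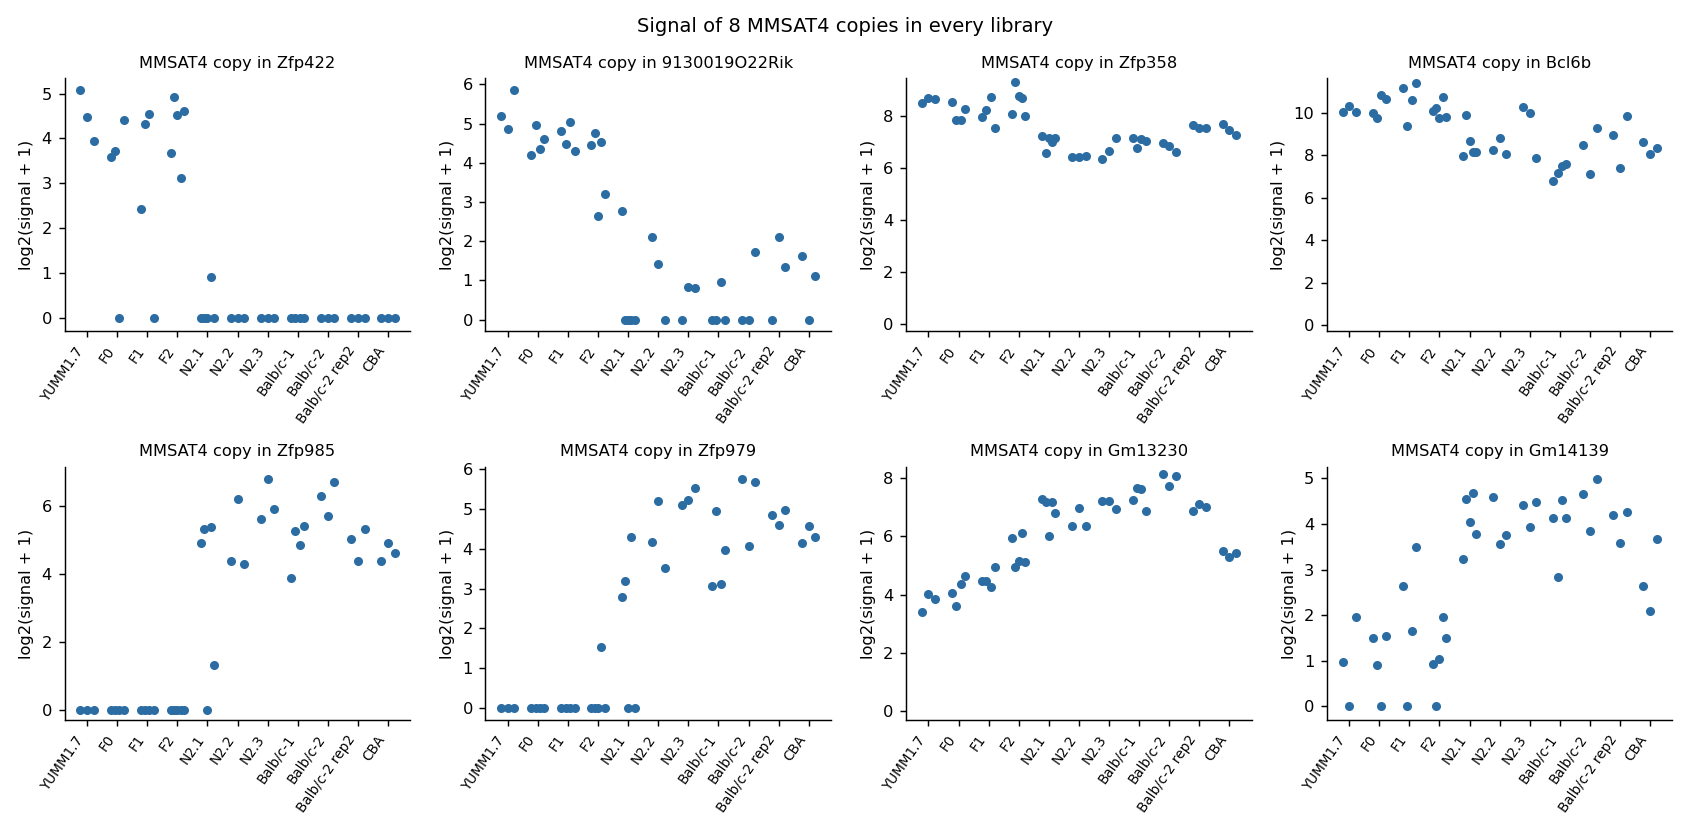
Signal of 8 MMSAT4 copies in each library, on a log2(signal + 1) scale (vertical axis), by group (horizontal axis); each point is a library, and for genes with several copies the one with the highest mean is drawn. Zfp422 is at 0 from N2.2 on, 9130019O22Rik reaches at most 5.88 (in N2.1 A) from N2.1 on, Zfp985 and Zfp979 are at 0 in YUMM1.7, F0 and F1, and Gm13230 has means of 12.8 in YUMM1.7, 253 in Balb/c-2, 126 in rep2 and 41.4 in CBA.

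The direction of change between F2 and N2.1 ran with the GC content of the copy. GC content could be read for the 380 tested satellites (81.2%) that lie wholly in an exon, where it ranged from 28.7 to 67.5% with a median of 48.7%. Of 87 copies below 40% GC, 8 were higher and 0 lower (median log2 fold change 0.26), and of 118 between 40 and 50% 6 were higher and 0 lower (0.16). Of 125 between 50 and 60%, 4 were higher and 21 lower (-0.32), and of 50 with at least 60% 0 were higher and 23 lower (-0.53). Across the 380 copies, Pearson's r between GC content and log2 fold change was -0.48 and Spearman's rho was -0.54. Over 11628 other repeat copies inside exons r was -0.15, with medians from 0.32 in the lowest to -0.05 in the highest GC class. Of these other copies 190 of 1574 below 40% GC were higher and 32 lower, and 437 of 6133 between 40 and 50% were higher and 179 lower. Between 50 and 60%, 176 of 3844 were higher and 187 lower, and with at least 60% 3 of 77 were higher and 9 lower. These correlations are across copies that share libraries and often a host gene, and are descriptions. Each library's smooth trend of signal on GC content was also removed, an alternative chosen after seeing the data. Then 8 of the 380 satellites were higher and 37 lower. Of all 12008 tested copies inside an exon, 520 were higher and 628 lower in that setting. Of the 62 satellite calls among the 380 copies, 41 were kept.

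**Figure D3:**
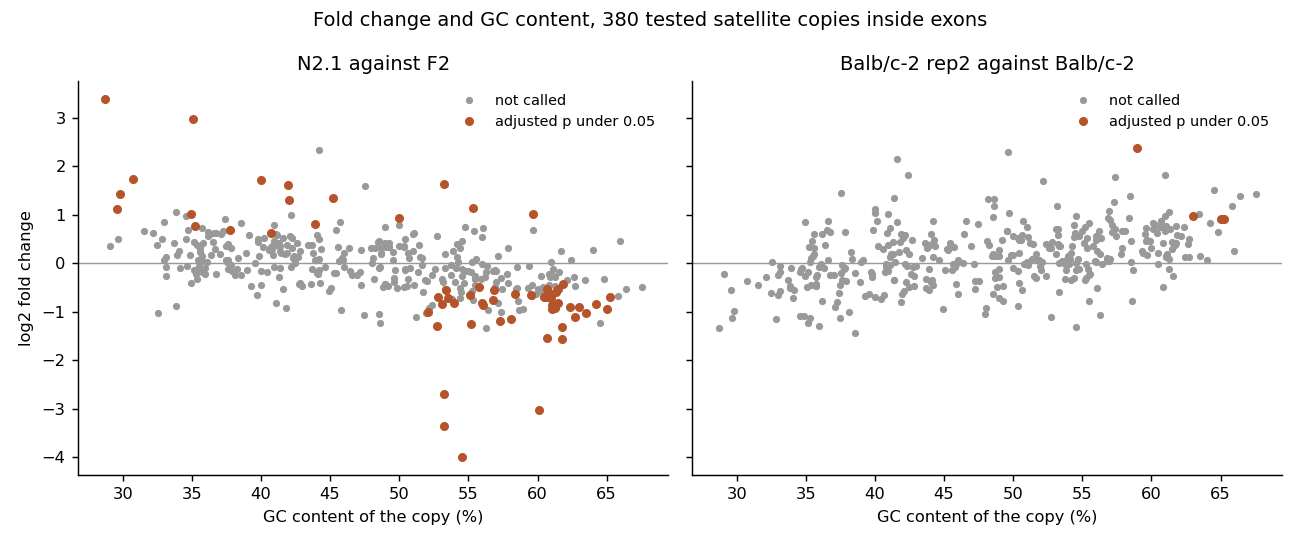
Log2 fold change (vertical axis) against GC content in percent (horizontal axis) of the 380 tested satellite copies that lie inside exons, for N2.1 against F2 (left) and Balb/c-2 rep2 against Balb/c-2 (right); called copies are in colour. The slope is downward on the left (r = -0.48) and upward on the right (r = 0.43).

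Each library could be placed on this axis by its gap, the median deviation of the 50 GC-rich copies from their mean over all libraries minus that of the 87 GC-poor copies. The gap was positive in every early library, between 0.24 and 0.96 in YUMM1.7, between 0.27 and 0.60 in F0, between 0.17 and 0.66 in F1, and between 0.037 and 0.52 in F2. It was negative in every library from N2.1 to Balb/c-2, between -0.73 and -0.45 in N2.1, between -0.52 and -0.27 in N2.2, between -0.53 and -0.41 in N2.3, between -0.62 and -0.45 in Balb/c-1, and between -0.83 and -0.65 in Balb/c-2. The second measurement of the Balb/c-2 tumours gave 0.02 to 0.11 and CBA gave 0.45 to 0.50. Rep2 and Balb/c-2, which share their tumours, did not overlap, with mean gaps of 0.056 and -0.76. Of the 50 GC-rich copies 32 had their highest group mean in YUMM1.7, F0, F1 or F2 and 10 in Balb/c-2 rep2, while 46 of the 87 GC-poor copies had it in Balb/c-1 or Balb/c-2. The part of library preparation in the F2 to N2.1 change was not tested.

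**Figure D4:**
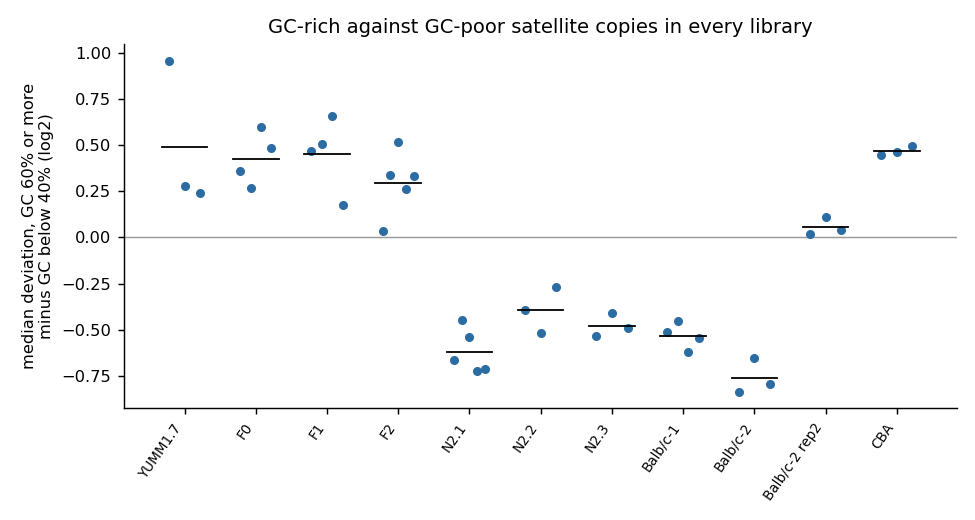
Median deviation of GC-rich satellite copies (60% GC or more) minus that of GC-poor copies (below 40%) in log2 units (vertical axis) in each library, by group (horizontal axis); each point is a library and the line is the group's mean. Libraries from N2.1 to Balb/c-2 lie below 0, from -0.83 to -0.27, and all others lie above 0.

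For N2.1 against F2 the fold changes of satellite copies ran with those of the rest of their host transcript, but for most called copies the host was not itself called in that direction. Host genes were read through their other repeat copies in exons, which gave a value for 232 of 272 host genes and 367 satellites. Across these 367 copies r between the log2 fold changes of copy and host was 0.73 for N2.1 against F2. Of the 53 called satellites with a host value, 45 had the same sign as the host, and for 22 the host was called in the same direction. Across the other comparisons r was 0.35 for F0 against YUMM1.7, 0.44 for F2 against F0, 0.61 for N2.3 against N2.1, 0.57 for Balb/c-1 against N2.3, 0.44 for Balb/c-2 against Balb/c-1, 0.17 for rep2 against Balb/c-2 and 0.55 for CBA against rep2. These are descriptions across copies that share libraries and host genes. The other copies of Zfp422 fell by 5.05 (adjusted p = 1.69e-05), those of 9130019O22Rik by 2.41 (adjusted p = 0.000277), and those of Zfp979 rose by 3.74 (adjusted p = 1.27e-08). Of the 232 host genes 40 were higher and 11 lower, against 9.53% and 5.23% of all 7344 genes read this way.

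For 3 copies the host was called in the opposite direction, 2 in Repin1 and 1 in Zfp865. The Repin1 unit printed above read 215, 373, 354, 339 and 275 in F2 and 217, 136, 124, 196 and 161 in N2.1, where N2.1 A lay just above F2 A (log2 fold change -0.90, SE 0.17, adjusted p = 0.000457). The other repeat copies in exons of Repin1 rose by 0.90 (SE 0.18, adjusted p = 0.000558). Its second unit, at chr6:48597672-48597802, fell by 0.43 (adjusted p = 0.0392). The Zfp865 unit read 261, 232, 334, 264 and 250 in F2 and 165, 205, 153, 143 and 156 in N2.1, without overlap (log2 fold change -0.70, SE 0.15, adjusted p = 0.00124), while the other copies of the gene rose by 0.58 (adjusted p = 0.00286). Both coding units are GC-rich, with 63.0% and 65.2% GC. For Zfp358 the host value was -0.28 (SE 0.45, adjusted p = 0.724), beside the fall of 1.55 in its copy.

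**Figure D5:**
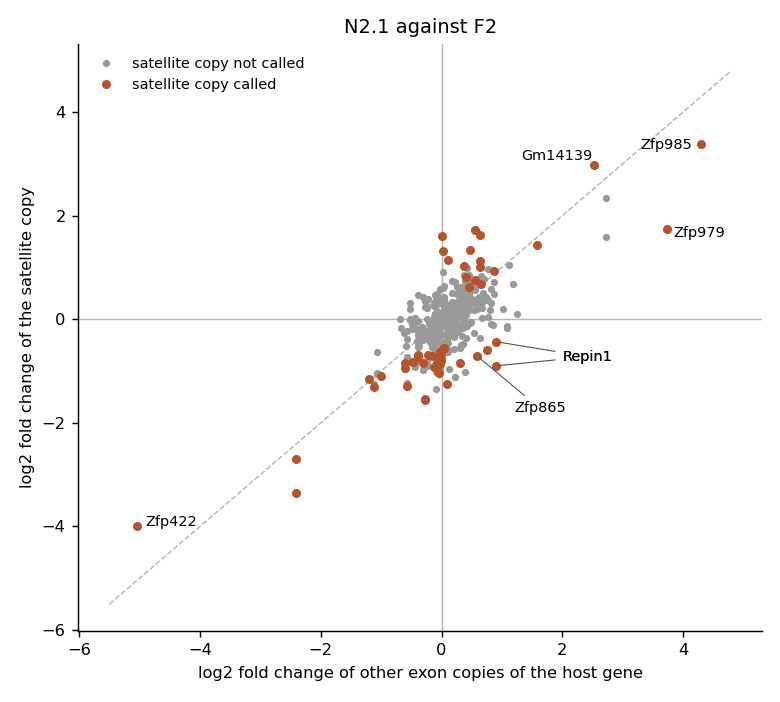
Log2 fold change of each satellite copy (vertical axis) against that of the other repeat copies in exons of its host gene (horizontal axis) for N2.1 against F2, over 367 copies, with the line of equal change dashed and called copies in colour. Zfp422, Zfp985, Zfp979 and Gm14139 lie far out in the quadrants where copy and host have the same sign, and the Repin1 and Zfp865 copies lie in the quadrant where the copy fell and the host rose.

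Few satellites changed within the N2 passages. For N2.3 against N2.1 6 were higher and 2 lower, against 0.726% and 0.677% of all copies. With TMM factors 6 satellites were higher and 1 lower, and of all 33215 copies 196 were higher and 161 lower. Zfp979 rose further, from the N2.1 values above to 33.0, 36.3 and 44.7 in N2.3 A to C, without overlap (log2 fold change 3.22, SE 0.65, adjusted p = 0.00554). Zfp985 reached 48.3, 111 and 59.1 (log2 fold change 2.72, adjusted p = 0.0386), a call lost without N2.1 C or E or any 1 N2.3 library (adjusted p up to 0.195). Both copies in Bcl6, the repressor that controls germinal centre B cells, rose. The one printed above read 48.7, 94.1, 43.6, 42.4 and 45.1 in N2.1 and 125, 74.9 and 261 in N2.3, with overlap (log2 fold change 1.36, SE 0.28, adjusted p = 0.00734), and that at chr16:23968323-23968440 rose by 1.45 (adjusted p = 0.00690). Both rest on N2.3 C, without which adjusted p was 0.133 and 0.0815.

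An intergenic ZP3AR copy at chr8:70822232-70822356 read at most 6.24 in N2.1 and 29.7, 29.2 and 6.81 in N2.3 (log2 fold change 2.86, adjusted p = 0.0160), a call lost without N2.3 A or N2.3 B (adjusted p up to 0.110). Its group means were at most 5.41 from YUMM1.7 to N2.1 and at least 11.5 from N2.2 on. It passed the limit of 5 only through these later groups, so its test is not independent of the filter. The coding copies in 4930522L14Rik and Zfp764 fell by 2.35 (adjusted p = 0.0339) and 1.41 (adjusted p = 0.0492). The first call was lost without N2.1 A, C, D or E or N2.3 A or B and the second without N2.1 A, C, D or E or N2.3 B or C in turn (adjusted p up to 0.341), and the second also with TMM factors (adjusted p = 0.0662). The count of 8 fell to 4 without N2.1 C, 5 without N2.1 E, 5 without N2.3 A, 3 without N2.3 B and 4 without N2.3 C.

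For Balb/c-1 against N2.3, 0 satellites were higher and 5 lower, against 0.912% and 1.29% of all copies. With TMM factors 3 satellites were higher and 2 lower, and of all 33215 copies 500 were higher and 281 lower. The coding copy of Egr2 (chr10:67540644-67540777), an early growth response factor, read 123, 124 and 90.1 in N2.3 and 3.69, 5.30, 2.88 and 2.08 in Balb/c-1 A to D (log2 fold change -4.69, SE 1.03, adjusted p = 0.0102). It kept its call without any 1 of the 7 libraries. Its signal varied widely within other groups, for instance 4.84, 9.09 and 161 in the 3 YUMM1.7 cultures. Bcl6b read 1247, 1023 and 235 in N2.3 and 110 to 188 in Balb/c-1 (log2 fold change -2.14, adjusted p = 0.0132), a call lost without N2.3 A or N2.3 B (adjusted p up to 0.0994). Zfp354c, whose unit with 3 linkers is printed above, fell from 19.5, 15 and 50.7 to 1.84, 7.95, 4.8 and 7.28 (log2 fold change -2.12, adjusted p = 0.0377), a call lost without N2.3 A or C or Balb/c-1 A or C (adjusted p up to 0.229) and with TMM factors (adjusted p = 0.0503). The Bcl6 copies fell by 1.07 and 1.16 (adjusted p = 0.0445 and 0.0389), calls that were lost without N2.3 C (adjusted p up to 0.380), without Balb/c-1 A, C or D, for the first also without N2.3 A, and with TMM factors. The count of 5 was 3 without N2.3 A, Balb/c-1 A or Balb/c-1 C.

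Between Balb/c-2 and Balb/c-1, limma called 0 of 468 satellites, against 0% higher and 0% lower of all copies. An unadjusted p under 0.05 was reached by 50 of the 468 satellites and by 3520 of all 33215 copies. EdgeR and DESeq2 called 0 satellites. Without Balb/c-2 A the count was 1 and without Balb/c-2 B it was 3.

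Measured again, the Balb/c-2 tumours showed higher signal in GC-rich MMSAT4 copies. For Balb/c-2 rep2 against Balb/c-2 4 satellites were higher and 0 lower, against 0.0331% and 0.199% of all copies. Zfp771, printed above, read 378, 392 and 279 in Balb/c-2 A to C and 681, 611 and 679 in rep2 (log2 fold change 0.92, SE 0.19, adjusted p = 0.0232). Repin1 read 215, 216 and 331 and then 550, 344 and 614 (0.97, adjusted p = 0.0414), Zfp865 read 174, 182 and 188 and then 379, 286 and 369 (0.91, adjusted p = 0.0216), and Zfp324 (chr7:12970978-12971111) read 1.21, 2.24 and 5.73 and then 20, 15.5 and 18.2 (2.37, adjusted p = 0.0142). None of the 4 overlapped between the groups, and neither did 100 of the 468 tested satellites and 12.1% of all copies. Each call was lost without Balb/c-2 A, rep2 A or rep2 C, those of Zfp865 and Repin1 also without Balb/c-2 B, and those of Zfp865 and Zfp771 without Balb/c-2 C (adjusted p up to 0.277), and that of Repin1 with TMM factors (adjusted p = 0.0845). With the tumour as a block, since the same tumours stand in both groups, 10 satellites were called (8 higher, 2 lower), 3 of them among the 4, and edgeR called 0 without the block. The share of all copies called with the block is not reported here. The GC relation had the opposite sign to that of N2.1 against F2: r = 0.43 across the 380 copies and 0.17 across other repeat copies in exons, with medians of -0.25, 0.13, 0.22 and 0.64 from the lowest to the highest GC class. The other copies of Repin1 had a log2 fold change of -0.91 (adjusted p = 0.0834), again opposite in sign to the satellite.

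CBA differed from Balb/c-2 rep2 in 7 higher and 19 lower satellites, against 3.39% and 2.54% of all copies. With TMM factors 3 satellites were higher and 29 lower, and of all 33215 copies 831 were higher and 1215 lower. The median log2 fold change was -0.19 over satellites and 0.20 over all copies. All 26 called copies were without overlap, as were 128 of the 468 tested satellites and 28.4% of all copies. Without rep2 B, so that all 5 libraries come from the same lane, 5 satellites were higher and 15 lower. MMSAT4 gave 3 higher and 16 lower, and ZP3AR 4 higher and 3 lower. The intron share moved too, from 17.8 to 19.5% in rep2 to 24.6 to 27.3% in CBA, and with it as a covariate 5 satellites were called (1 higher, 4 lower). The share of all copies called with this covariate is not reported here. The 42 ZP3AR copies in introns had a median of 0.61 and all 14031 tested copies in introns one of 0.53.

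The strongest rise was that of the ZP3AR unit in an intron of Lig1 (chr7:13309816-13310333), the DNA ligase of replication, which read 0, 3.32 and 0 in rep2 and 19.9, 20.6 and 32.8 in CBA (log2 fold change 3.93, SE 0.65, adjusted p = 0.000470). Zfp354c rose by 2.13 (adjusted p = 0.0291), and the ZP3AR units in Spaca6, a sperm protein needed for fertilisation, and Pcolce, which enhances procollagen processing, rose by 1.46 and 1.43 (adjusted p = 0.0432 and 0.0269). With TMM factors the Spaca6 call was lost (adjusted p = 0.0552). Among the lower copies, Zbtb18 (chr1:177448342-177448511), a neuronal repressor, read 709, 680 and 956 in rep2 and 275, 258 and 175 in CBA (log2 fold change -1.74, SE 0.33, adjusted p = 0.00158). Gm13230 read 116, 136 and 127 and then 43.9, 38.0 and 42.2 (-1.59, SE 0.31, adjusted p = 0.00198). Zfp97, the ZP3AR unit in Cox19, a cytochrome oxidase assembly factor, and Zfp655 fell by 1.81, 1.80 and 1.69 (adjusted p = 0.0227, 0.0404 and 0.0121).

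The calls of Lig1, Zbtb18 and Gm13230 in CBA held without any 1 of the 6 libraries. That of Zfp655 was lost without CBA A (adjusted p = 0.0859). The other calls named here were lost without CBA A, without CBA C, and without most of the other libraries in turn: Zfp354c without rep2 A or C or CBA B, Spaca6 likewise, Pcolce without rep2 C or CBA B, and Zfp97 and Cox19 without any 1 rep2 library (adjusted p up to 0.207). The count of 26 was 10 without rep2 A, 20 without rep2 B, 6 without rep2 C, 8 without CBA A, 11 without CBA B and 12 without CBA C.

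For CBA against rep2, 18 of the 19 called copies with a host value had its sign, and for 11 of them the host was called in the same direction. Of the 232 host genes 8 were higher and 35 lower, against 6.13% and 6.43% of all genes read this way.

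Summed over all copies of a name, MMSAT4 differed in 3 of the 8 comparisons, tested among 1004 repeat names. For N2.1 against F2 the sum was lower by a log2 fold change of -0.27 (SE 0.07, adjusted p = 0.00161), where 39.2% of names were called, and -0.50 with TMM factors (adjusted p = 0.000568). F2 sums ranged from 22116.7 to 29010.5 and N2.1 sums from 20147.3 to 23290.3, with overlap. For Balb/c-2 rep2 against Balb/c-2 it was higher by 0.29 (SE 0.08, adjusted p = 0.0457), where 2.99% of names were called, from 22865.2 to 24547.9 up to 26496.4 to 30526.1. That call was lost with TMM factors (0.37, adjusted p = 0.128), while with the tumour as a block adjusted p was 2.64e-07. For CBA against rep2 it was lower by -0.28 (adjusted p = 0.0279), where 14% of names were called. ZP3AR was called only for N2.1 against F2, higher by 0.28 (SE 0.10, adjusted p = 0.0202) with the deposited factors and 0.06 with TMM factors (adjusted p = 0.589). With the intron share as a covariate limma called none of the summed satellite names in these 3 comparisons.

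The satellite arrays gave few reads. The 20 GSAT_MM copies summed to 0 to 25 reads per library, and the libraries at 0 were 1 of F1, 1 of F2 and 1 of Balb/c-2, where a count of 0 allows up to 3 reads. Mean sums by group were 11.8 ± 7.26 (SD, n = 3) in YUMM1.7, 2.88 ± 2.07 in F2 (n = 5), 6.63 ± 3.97 in N2.1 (n = 5), 11.5 ± 6.59 in N2.3 (n = 3) and 11.4 ± 1.46 in CBA (n = 3). As a repeat name GSAT_MM was called in no comparison, and for N2.1 against F2 its log2 fold change was 1.01 (SE 0.64, adjusted p = 0.204). A copy at chr2:98666542-98667332, in the annotated coding exon of Gm10800, held 163 of the reads, in 34 libraries, and reached 14.4 in N2.3 C. The 31370-base array at chr9:3000003-3031372 held 35 reads in 20 libraries. The counting of reads that match several places was not given in the sources used here, so a low true level and reads left out cannot be told apart.

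The summed signal of the 29 pericentromeric copies had group means that ranged from 8.16 ± 4.58 in Balb/c-2 rep2 (n = 3) to 19.2 ± 7.05 in N2.3 (n = 3). Most were ZP3AR units (21 copies), led by one in Pnpla6 (chr8:3521765-3521858) with a mean of 1.79. The SYNREP_MM copy at chr17:3075090-3075282 had the highest mean of the pericentromeric copies, 3.16, and its 135 reads fell in 34 libraries. The 81 MurSAT1 copies lay on chromosomes Y (69 copies, 79.4% of their signal) and X (12 copies). They held 2 to 10 reads in each YUMM1.7 library and 0 reads in all 4 Balb/c-1 and all 3 Balb/c-2 libraries. They held 10 reads in 1 CBA library and 0 in the other 2, and their mean sum of 2.98 was below the limit for a test. The 12 IMPB_01 copies summed to 0 to 12 reads per library.

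Genes of the heterochromatin that acts on satellites were read through their repeat copies in exons, which 32 of the 40 genes on the list have and 26 have at a level that could be tested. For N2.1 against F2 4 were higher and 0 lower, against 9.53% and 5.23% of all genes read this way: Uhrf1, which guides maintenance DNA methylation (66.4 ± 31.7 in F2, 166 ± 26.5 in N2.1, n = 5 each, log2 fold change 1.42, adjusted p = 0.00180), Atrx, a remodeller of pericentromeric chromatin (0.60, adjusted p = 0.00363), Atf7ip, a partner of Setdb1 (1.76, adjusted p = 0.0221), and Cbx5, the heterochromatin protein HP1 alpha (0.50, adjusted p = 0.0465). For CBA against Balb/c-2 rep2 7 were higher and 0 lower, against 6.13% and 6.43%, among them Uhrf1 (2.38, adjusted p = 0.000295), the centromeric histone Cenpa (1.36, adjusted p = 0.00121) and the methyltransferase Suv39h1 (2.00, adjusted p = 0.0354). Signal was low for Suv39h1, 3.53 ± 3.65 (SD) in rep2 and 13.9 ± 1.19 in CBA. It was also low for Atf7ip, 2.86 ± 2.46 in F2 and 10.6 ± 5.36 in N2.1. For Balb/c-2 rep2 against Balb/c-2 0 were higher and 1 lower, Uhrf1 (-1.69, adjusted p = 0.0487), against 0.0545% higher and 0.272% lower of all genes. For N2.3 against N2.1 0 were higher and 1 lower, Cenpb, which binds the minor satellite (-1.31, adjusted p = 0.0070), against 2.26% and 1.59%. For Balb/c-1 against N2.3 2 were higher and 0 lower, Cbx5 (0.71, adjusted p = 0.0352) and Pphln1 (0.58, adjusted p = 0.0325), against 3.58% and 3.64%. None was called for F0 against YUMM1.7, F2 against F0 or Balb/c-2 against Balb/c-1, where 0.0136%, 0.177% and 0.136% of all genes were.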

How the data were processed

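Poly(A) RNA of 40 libraries was measured per repeat copy. The values are signal: whole reads that the authors divided by 1 factor per library, as the deposited values show, since in each library they are multiples of 1 step (100% whole within 0.1 read). The submitters' processing notes name mm10, HISAT2 2.0.5, StringTie 1.3.3b and featureCounts 1.5.0-p3. The counting of reads with several matches, the repeat annotation and the strand setting were not given in the sources used here.

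Copies with a mean signal of at least 5 were tested with limma 3.58.1 (R 4.3.3) on log2(signal + 1), with 1 mean for each of 11 groups, a trended prior, two-sided tests and Benjamini-Hochberg adjustment per comparison. Repeat names and host genes were summed and tested likewise. Alternatives were TMM factors, DESeq2 1.42.0 and the quasi-likelihood test of edgeR 4.0.16 on recovered reads, and further settings; the scripts were tested on simulated data. Places and sequences come from GENCODE M21 (GRCm38) with bedtools 2.31.1 and Biopython 1.88. In the main fits p-values rest on the spread between tumours, or cultures for YUMM1.7, within groups, pooled over all 11 groups. The Balb/c-2 tumours enter that pool in Balb/c-2 and again in rep2, and their libraries were treated as independent there. Same-letter Balb/c-2 and rep2 libraries come from the same tumours and deviated together (r 0.155 to 0.255, other letters -0.195 to -0.0563).

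The text names, for each comparison, the 5 highest and 5 lowest fold changes among called satellites, the 5 highest means per place class, and every satellite name; 1 copy that the rule names is not reported here. Members and lists were chosen with earlier results of these data known.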

Additional observations from a re-analysis of the deposited data

Results flagged for a closer look

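Within the groups of 4 or 5 libraries, 46 sets of values of the summed satellites and of called copies were checked for a library far from the others, and 7 were found. Chance flags about 1 in 20 groups where values are normally spread, a rate that does not cover the 4 groups below that are otherwise at 0. Tumour N2.1 B had a summed satellite signal of 25101.9, against 22145 to 22777.9 in the other 4 N2.1 libraries, and a summed MMSAT4 signal of 23290.3, against 20147.3 to 20939.5. The Bcl6 copy at chr16:23968060-23968170 read 94.1 in N2.1 B and 42.4 to 48.7 in the others. The remaining 4 are single libraries with signal in a group otherwise at 0: Zfp979 with 1.91 in F2 D, Zfp422 with 0.883 in N2.1 D, the 9130019O22Rik copy at chr7:127385200-127385413 with 5.88 in N2.1 A and Zfp467 with 1.68 in N2.1 A.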

How the results depend on the processing

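No called fold change of a named satellite changed its sign under any setting run. Counts of called satellites that moved by more than 1.5 times are given here by setting, with the cause not tested. With a mean signal of at least 1 the counts were 0 for F2 against F0, 42 for N2.1 against F2, 1 for rep2 against Balb/c-2 and 15 for CBA against rep2, and with at least 20 they were 5 for N2.3 against N2.1, 8 in Balb/c-1 against N2.3 and 8 in rep2 against Balb/c-2. A pseudocount of 5 gave 0 for F2 against F0. Fits of the 2 groups alone gave 0 for F2 against F0, 0 for N2.3, 1 for Balb/c-1, 0 for rep2 and 11 for CBA. The intron share as covariate gave 0 for F2 against F0, 20 for N2.1, 2 for Balb/c-1 and 5 for CBA, no satellite name in N2.1, rep2 or CBA (0 each), and 25, 1, 1 and 10 host genes in N2.1, Balb/c-2, rep2 and CBA. EdgeR gave 5 for N2.3 and 0 for rep2. TMM factors gave 1 satellite name for N2.1, 0 for rep2, and 1 host gene for F2 against F0 and 65 for CBA. Alternatives chosen after seeing the data were copies inside an exon (7 for rep2) and these with the GC trend removed (1 for rep2, 17 for CBA).

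The replicate block pairs libraries by tumour letter, which is a shared tumour for rep2 against Balb/c-2 alone; elsewhere same-letter libraries share a letter only (r from -0.132 to 0.128). With the block the counts were 0 for F2 against F0, 31 for N2.1, 0 for N2.3, 1 for Balb/c-1, 10 for rep2 and 1 for CBA, and for host genes 22, 0, 0, 1 and 0 from N2.1 on without Balb/c-2 against Balb/c-1. For copies inside an exon with the block they were 0, 38, 0, 1, 14 and 0 in that order, and with the GC trend removed as well 0, 22, 0, 1, 24 and 9.

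Leaving out 1 library in turn gave 0 to 1 satellites for F2 against F0, 34 to 65 for N2.1, 3 to 10 for N2.3, 3 to 7 for Balb/c-1, 0 to 3 for Balb/c-2, 0 to 4 for rep2 and 6 to 20 for CBA. Satellite names ranged from 1 to 2 for N2.1 and from 0 to 1 for rep2 and CBA, and host genes from 33 to 51, 3 to 13, 5 to 13, 0 to 7, 0 to 1 and 14 to 44 from N2.1 on. Copies with a handful of reads, as all pericentromeric ones, allow no statement on differences at this depth.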

Other observations

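Several satellites outside the named ones separated the same N2.1 tumours. They were chosen after their values were seen, for the widest span of group means, and no test was added. The MMSAT4 copy in an intron of Pcdh15 (chr10:73283083-73283219), a cadherin of hair cell bundles, read 16.0, 19.4 and 29.1 in N2.1 A, B and D and 0 in C and E, while no library of YUMM1.7 to F2 exceeded 6.58 and all later libraries read 7.57 to 69.2. In the comparison of N2.1 with F2 it had a log2 fold change of 1.97 and adjusted p = 0.0533 (limma). Its mean of 21.6 over all libraries rested mainly on N2.1 and later groups, so this test is not independent of the filter of 5. The p-values given here for this copy and for Zfp105 are also not independent of the choice by span. A coding copy of Zfp105 (chr9:122929877-122930195) read 19.3, 31.7 and 18.6 in N2.1 A, B and D and 0 in C and E (2.33, adjusted p = 0.0576), and the second (chr9:122930718-122930837) read 5.04, 10.2 and 12.4 and again 0 in C and E. These 3 copies lie on other chromosomes than Zfp985 and Zfp979, whose signal in N2.1 also came from A, B and D, apart from 1.5 in E for Zfp985. Both Zfp105 copies were listed at 0 in N2.3 C as well. The MurSAT1 copies held 8 reads in N2.1 C and 0 to 2 in each of the other 4 N2.1 libraries.

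Zfp553, with 5 tested units the host gene with the most, had both called and uncalled units for N2.1 against F2; the units were not tested against each other. The 3 units at chr7:127235812-127235922, chr7:127236145-127236279 and chr7:127236527-127236662 fell by 0.77, 0.81 and 0.65 (limma, adjusted p = 0.0172, 0.00106 and 0.0253), and the other 2 had log2 fold changes of -0.28 and -0.11 (adjusted p = 0.357 and 0.776). Their GC contents were 56.8%, 61.5% and 55.1% for the units that fell and 56.2% and 50.4% for the others, and the other repeat copies of the gene had a log2 fold change of -0.01 (adjusted p = 0.980).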
